A study of Mus musculus with 12 samples.

Results

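The genes described here encode tight junction proteins and 2 angiomotins in mouse keratinocytes, the epithelial cells of the epidermis, grown in culture. They were taken by gene name from the deposited count table: Cldn1, Cldn4, Ocln, Marveld2, F11r, Tjp1, Cgn, Amotl1 and Amotl2, which are 9 of the 54532 genes listed. All 9 had enough counts to be tested, among 13571 genes that did. Messenger RNA was sequenced from 12 libraries that make 4 groups of 3: the total and the cortical fraction of unwounded cells, and the same fractions of wounded cells. All cells had the genotype WT DP-BirA(1-584), in which residues 1 to 584 of desmoplakin, a desmosome protein, are fused to the biotin ligase BirA. All groups received 2 µg/mL doxycycline to switch the fusion on, 1.2 micromolar calcium as labelled, and biotin for 16 h (keratinocytes are usually brought to form junctions with millimolar calcium, and the labelled unit could not be checked here), and the groups differed in whether the cell layer had been scratch wounded. In each case the translating part of a sucrose gradient was incubated with neutravidin resin, to which biotin binds. The RNA held on the resin is the cortical fraction, and the depleted remainder is the total fraction. The titles call the 3 libraries of a group biological replicates without naming a culture, animal or clone, so the p-values measure the spread between these libraries.

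Tight junctions seal the space between neighbouring epithelial cells and, in the epidermis, form a barrier within the granular layer. Claudins and the MARVEL proteins occludin and tricellulin span the membrane, JAM-A is an immunoglobulin-like adhesion molecule, and ZO-1 and cingulin are cytoplasmic scaffold proteins that tie the membrane proteins to actin and myosin. Angiomotins bind junction proteins, actin and the transcriptional co-activator YAP, which links cell contacts to the Hippo pathway, a kinase cascade that restrains YAP.

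Total counts ran from 8980013 to 23457548 per library. Of the 13 keratinocyte markers looked for, all had counts in every group, although Krt1 had 234 counts over all libraries. Summed fibroblast, endothelial and melanocyte markers reached at most 6.47, 2.77 and 2.27 CPM (counts scaled by library size). The leukocyte list summed to 17.8 to 58.7 CPM, nearly all of it from Cd68, while Adgre1 and Itgam had 0 counts. Wounded total replicate 1 stood apart from the others. The number of genes detected in it was 13117, while the other 11 libraries detected 14393 to 16867. Of the genes expected in it at 10 to 20 counts 32.7% were at 0, where replicates 2 and 3 of its group had 13.1% and 14.8%. Results that rest on it are given with and without it.

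On a scale corrected for gene length (the deposited FPKM, fragments scaled by gene length and library size), Cldn4 and F11r had the highest levels of the 9 genes in every group. In the unwounded total fraction Cldn4 (claudin-4) was at 39.6 ± 3.21 FPKM (SD, n = 3 here and for every group below) and F11r (JAM-A) at 37.2 ± 2.55, with overlapping libraries. Cldn1 (claudin-1) at 10.7 ± 1.18 and Amotl1 (angiomotin-like 1) at 10.1 ± 0.686 overlapped as well. These were followed by Tjp1 (ZO-1) at 4.92 ± 0.316, Cgn (cingulin) at 4.30 ± 0.671 and Marveld2 (tricellulin) at 3.43 ± 0.267, each overlapping the next. Ocln (occludin) at 1.43 ± 0.159 and Amotl2 (angiomotin-like 2) at 0.772 ± 0.068 were lowest and did not overlap each other. The order of the leading pair turned in the wounded total fraction, where F11r had 61.4 ± 1.64 FPKM and Cldn4 53.0 ± 3.50 with no overlap, and Cldn4 again led in both cortical groups, at 56.1 ± 1.81 unwounded and 64.0 ± 1.90 wounded. Amotl1 stood above Cldn1 in both cortical groups without overlap, at 16.6 ± 0.896 against 13.7 ± 0.863 FPKM unwounded and 21.3 ± 0.740 against 16.0 ± 1.85 wounded. Amotl2 was lowest in all 4 groups, and its libraries overlapped those of Ocln in the wounded cortical group.

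**Figure D1:**
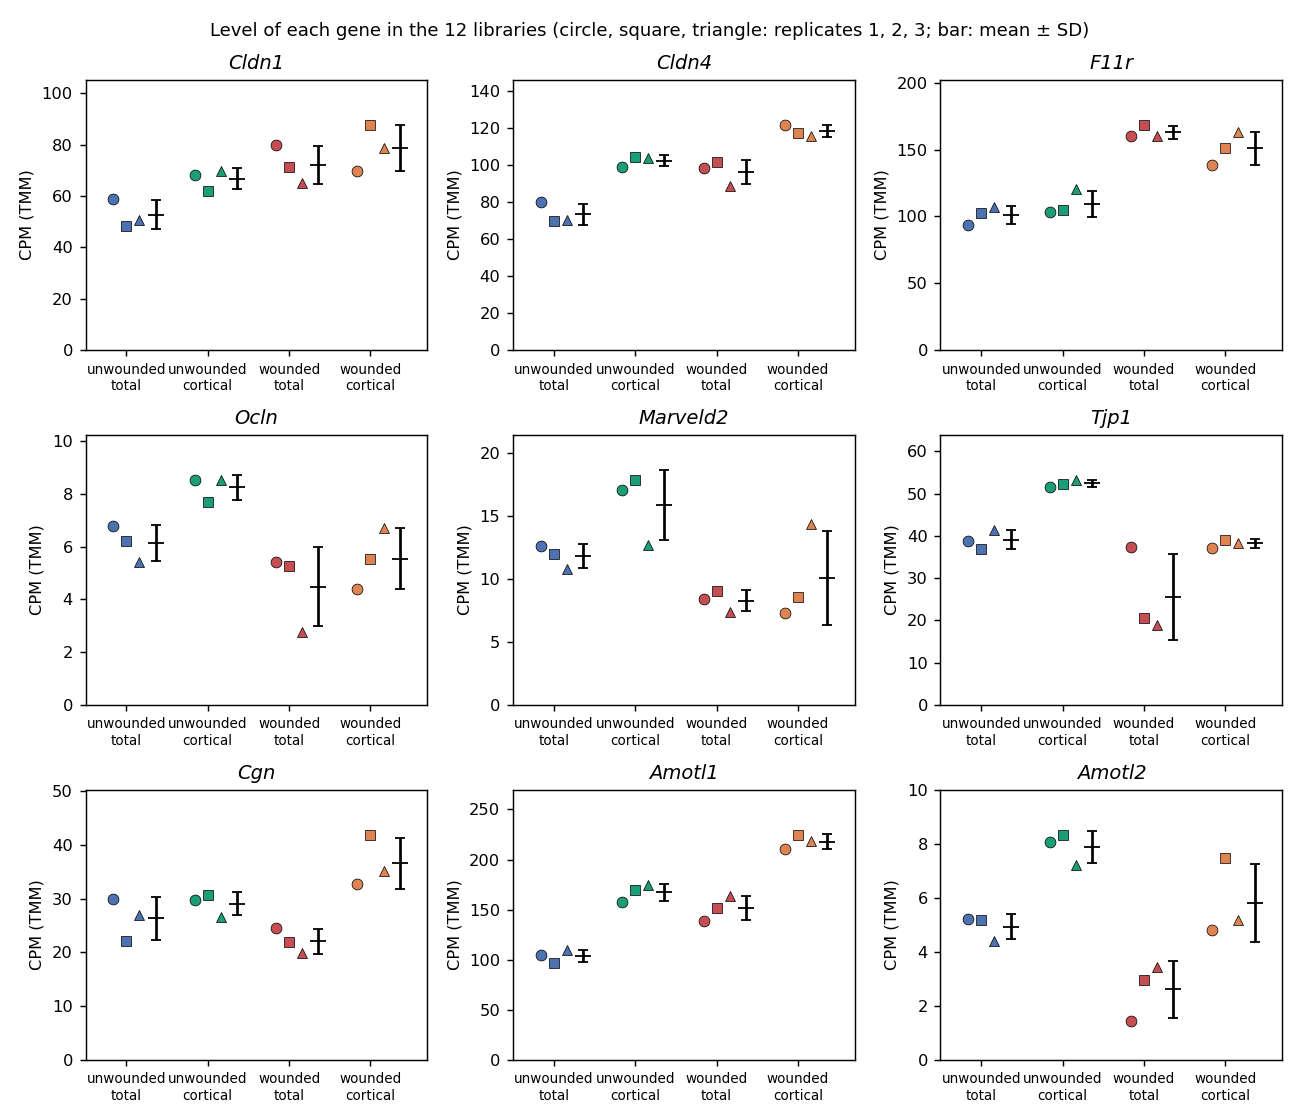
Level of each of the 9 genes in the 12 libraries, as CPM after TMM scaling on the vertical axis, with the 4 groups side by side on the horizontal axis. Circles, squares and triangles are replicates 1, 2 and 3, and the bar is the mean with its SD. Amotl1 spans 96.8 to 109 CPM in the unwounded total libraries and 210.1 to 225 in the wounded cortical ones, and Tjp1 in wounded total replicate 1 lies apart from the other wounded total libraries.

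In unwounded cells all 9 genes had a higher fitted level in the cortical than in the total fraction, and Amotl1 and Cldn4 passed the test. The test was edgeR's quasi-likelihood F test in 1 fit of all libraries, with p-values adjusted over all 13571 genes and a threshold of 0.05. The 2 members called higher compare with 6.62% of all genes called higher, 7.59% called lower and 14.2% called in either direction. The median log2 fold change of the 9 genes was 0.42, against 0.0023 for all genes tested.

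Amotl1 was at 105, 96.8 and 109 CPM in replicates 1 to 3 of the unwounded total fraction and at 158, 169 and 174 CPM in the cortical fraction. Every cortical library was above every total library, and Amotl1 was 1.61-fold higher (log2 fold change 0.69, SE 0.10, adjusted p = 3.18e-04). Cldn4 was at 79.8, 69.5 and 70.2 CPM in the total fraction and at 98.7, 104.2 and 103.5 CPM in the cortical fraction. Its groups did not overlap either, and it was 1.40-fold higher (0.48, SE 0.10, adjusted p = 3.48e-03). Both calls held under each of 23 other settings of the fit, among them leaving out each library.

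The other members of the unwounded comparison did not pass in this fit. Tjp1 was at 38.8, 37.0 and 41.5 CPM in the total fraction and 51.6, 52.3 and 53.3 in the cortical fraction, with no overlap (0.42, SE 0.19, adjusted p = 0.151). Cldn1 was at 59.0, 48.2 and 50.8 CPM in the total and 68.2, 62.0 and 69.8 in the cortical fraction, again with no overlap (0.34, SE 0.12, adjusted p = 0.071). Without wounded total replicate 1, which is in neither group of this comparison, both were called (adjusted p = 5.73e-03 for Tjp1 and 0.026 for Cldn1), which makes 4 of the 9. Cldn1 was also called without unwounded total replicate 1 (0.0492). Of the 23 other settings, 3 called Tjp1 and 5 called Cldn1. The rarer transcripts had wider errors. Amotl2 was at 4.94 ± 0.456 CPM in the total and 7.89 ± 0.596 CPM in the cortical fraction, with no overlap, and did not pass (0.67, SE 0.32, adjusted p = 0.194). Marveld2 at 11.8 ± 0.945 against 15.9 ± 2.78 CPM (0.43, SE 0.24) and Ocln at 6.14 ± 0.693 against 8.25 ± 0.485 CPM (0.42, SE 0.29) did not overlap and did not pass either. For Marveld2 the groups were apart by little: the highest total library was at 12.64 CPM and the lowest cortical one at 12.71. F11r (0.12, SE 0.10) and Cgn (0.14, SE 0.15) overlapped between the fractions. In all, 7 of the 9 genes had every cortical library above every total library, compared with 17.1% of all genes. Keratinocyte markers moved in the same direction, summing to 10100 to 11300 CPM in the total and 15000 to 15100 CPM in the cortical libraries. Most of that was Krt14 (mean 4489 and 6609 CPM) and Krt5 (4079 and 5856 CPM). Of the 13 markers 6 were called higher, against 6.62% of all genes, and their median log2 fold change was 0.42. The part of these markers in the differences was not tested.

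In wounded cells 5 of the 9 genes were called higher in the cortical fraction with all libraries: Amotl2, Cgn, Tjp1, Amotl1 and Cldn4. This compares with 7.62% of all genes called higher, 8.03% called lower and 15.7% in either direction. Of these 5 calls, only that of Cgn held under all 23 other settings. Only Cgn and Cldn4 stayed called with the trend of each library on gene length removed, as given below. The median of the 9 was 0.31, against 0.042 for all genes. The libraries of 4 members did not overlap between the fractions, with every cortical library higher, against 16.2% of all genes.

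Cgn was at 24.5, 21.8 and 19.9 CPM in the wounded total fraction and at 32.7, 41.9 and 35.1 CPM in the wounded cortical fraction. Each cortical library lay above each total library, and Cgn was 1.65-fold higher (log2 fold change 0.73, SE 0.15, adjusted p = 4.16e-03), a call that held under all 23 other settings. Amotl1 was at 139, 152 and 163 CPM in the total and 210.1, 225 and 218 CPM in the cortical fraction. It was 1.44-fold higher with no overlap (0.53, SE 0.10, adjusted p = 2.18e-03). Amotl2 was at 1.42, 2.98 and 3.43 CPM in the total and 4.81, 7.48 and 5.19 CPM in the cortical fraction. That is 24, 53 and 56 counts in the total libraries, and Amotl2 was 2.22-fold higher with no overlap (1.15, SE 0.33, adjusted p = 0.0277). Its call was lost without wounded total replicate 2 (1.26, adjusted p = 0.0579) and without wounded cortical replicate 2 (0.94, adjusted p = 0.112). Without wounded total replicate 1 the call held at a smaller difference (0.85, adjusted p = 0.0473).

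Tjp1 was at 37.3, 20.4 and 18.8 CPM in the wounded total fraction and at 37.2, 39.1 and 38.3 CPM in the wounded cortical fraction. Replicate 1 of the total fraction lay among the cortical libraries and the other 2 far below them. Tjp1 passed narrowly with all libraries (log2 fold change 0.58, SE 0.19, adjusted p = 0.0458). Without wounded total replicate 1 it was 0.96 with an adjusted p of 4.04e-06, and without any 1 of the other 11 libraries the adjusted p was 0.0601 to 0.199. Cldn4 was at 98.1, 101 and 88.5 CPM in the total and 122, 117 and 115 CPM in the cortical fraction, with no overlap. Its difference was the smallest of the called ones (0.30, SE 0.10, adjusted p = 0.0435), and it was held without wounded total replicate 1 (0.0236) and lost without any 1 of the other 11 libraries (0.0516 to 0.163). The other members overlapped between the fractions and did not pass. Cldn1 was at 79.9, 71.4 and 64.9 against 69.8, 87.8 and 78.7 CPM (0.13, SE 0.12), and F11r at 160.3, 169 and 160.4 against 139, 151 and 163 CPM, which gives the lone negative value (-0.11, SE 0.10, or 0.10 when scaled by library size alone). Ocln at 4.48 ± 1.49 against 5.55 ± 1.16 CPM (0.31, SE 0.29) and Marveld2 at 8.27 ± 0.852 against 10.1 ± 3.75 CPM (0.28, SE 0.24) were the other 2. Marveld2 turned to -0.062 without wounded cortical replicate 3, where it was at 14.4 CPM against 7.33 and 8.55 in the other 2 libraries of that group. Keratinocyte markers summed to 17100 to 19600 CPM in the total and 20600 to 20900 CPM in the cortical libraries. Here 2 of 13 were called higher, against 7.62% of all genes.

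**Figure D2:**
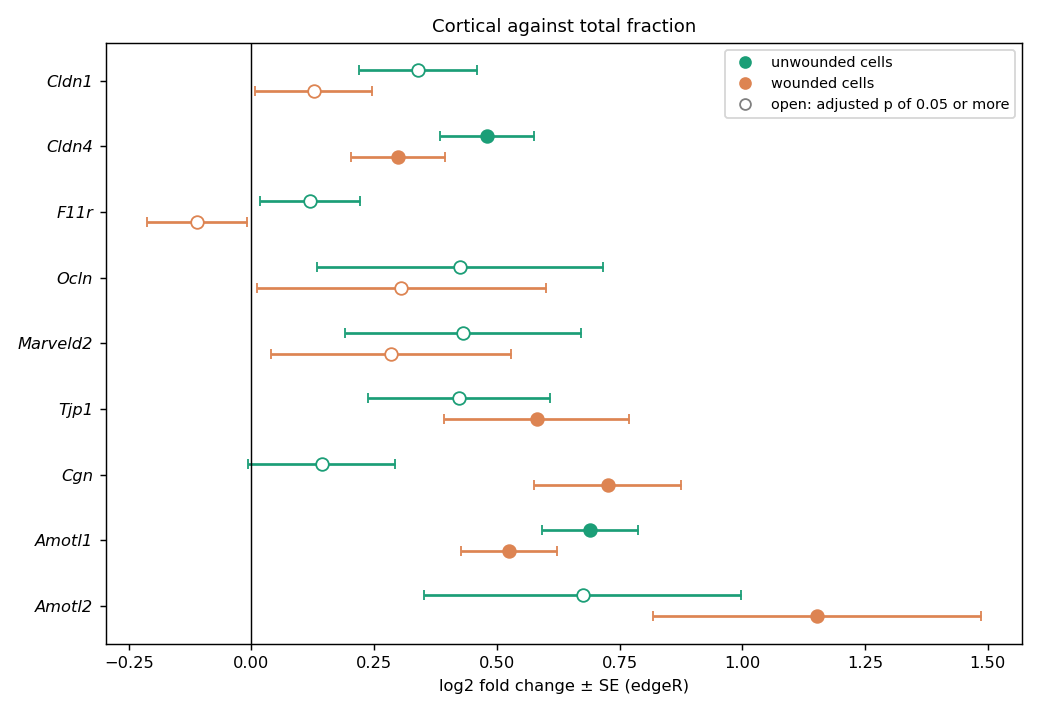
Log2 fold change of the cortical against the total fraction on the horizontal axis for each of the 9 genes, in unwounded (green) and wounded (orange) cells, with the standard error from edgeR as bars. Filled points passed an adjusted p of 0.05: Amotl1 and Cldn4 in both, and Amotl2, Cgn and Tjp1 in wounded cells.

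The cortical differences were also computed with the trend of each library on gene length removed, since the 9 genes span a wide range of lengths. Their merged exons cover from 1816 bases for Cldn4, a gene with 1 exon on chromosome 5 (134945119 to 134946934), to 10064 bases for Amotl1, on chromosome 9 (14541966 to 14645056). Their coding sequences run from 210 codons in Cldn4 and 211 in Cldn1 to 1192 in Cgn and 1745 in Tjp1. With the trend removed, Cldn4 was further above the total fraction, at 0.65 (adjusted p = 8.31e-04) in unwounded and 0.46 (8.81e-03) in wounded cells. Amotl1 moved to 0.47 (adjusted p = 0.0123) in unwounded cells and to 0.27 (0.133) in wounded cells, where its call was lost. Cgn kept its call in wounded cells at 0.60 (adjusted p = 0.012), and those of Tjp1 (0.43, 0.0963) and Amotl2 (0.99, 0.0816) were lost, which left Cldn4 and Cgn called there. The wounding comparisons moved less: the same setting left 5 members called in the total fraction and 1, F11r, in the cortical fraction.

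**Figure D3:**
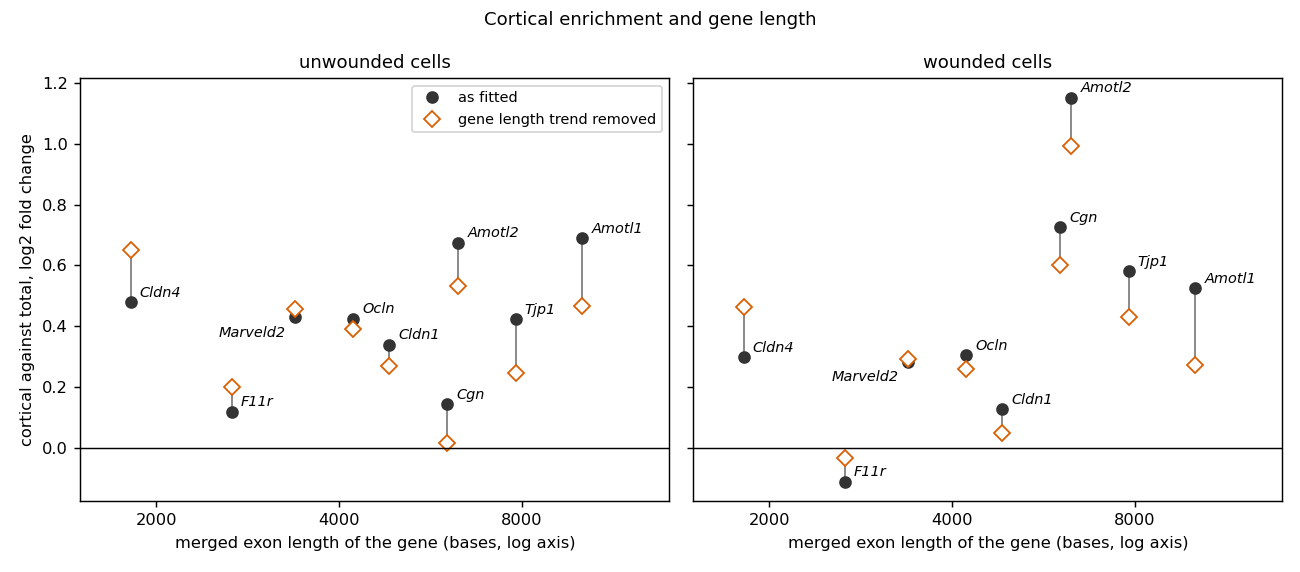
Log2 fold change of the cortical against the total fraction on the vertical axis against the merged exon length of each gene on a log axis, for unwounded (left) and wounded (right) cells. Filled circles are the values as fitted and open diamonds those with the gene length trend removed: Cldn4, the shortest gene, moves up from 0.48 to 0.65 in unwounded cells, and Amotl1, the longest, moves down from 0.69 to 0.47.

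Wounding divided the 9 genes in the total fraction. F11r, Amotl1, Cldn1 and Cldn4 were higher in wounded cells and Tjp1 was lower, so that 2 claudins, JAM-A and an angiomotin rose while the ZO-1 scaffold fell. The 4 called higher and 1 called lower compare with 8.39% and 7.20% of all genes, or 15.6% in either direction. The median of the 9 was -0.25, against -0.026 for all genes. In such bulk samples, a change in how many cells carry an mRNA and one in its level per cell cannot be told apart. The wounded libraries of F11r, Amotl1, Cldn1 and Cldn4 all lay above the unwounded ones and those of Ocln, Marveld2 and Amotl2 all below, against 14.5% and 17.6% of all genes.

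F11r was at 93.4, 103 and 107 CPM in the unwounded total fraction, against 160.3 to 169 CPM after wounding. It showed the largest rise of the 9, 1.62-fold (log2 fold change 0.69, SE 0.10, adjusted p = 3.20e-04). Amotl1 rose 1.46-fold (0.55, SE 0.10, adjusted p = 1.27e-03), and both calls held under all 23 other settings. Cldn1 rose 1.37-fold (0.45, SE 0.12, adjusted p = 0.0174), a call lost without unwounded total replicate 2 (0.093) or 3 (0.0607). Cldn4 rose 1.31-fold (0.39, SE 0.10, adjusted p = 0.0116), which was lost without unwounded total replicate 2 (0.0647) or wounded total replicate 2 (0.0618).

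Tjp1 fell by 0.61 on the log2 scale (SE 0.19, adjusted p = 0.0351), with wounded replicate 1, at 37.3 CPM, inside the unwounded range and replicates 2 and 3 near 20.4 and 18.8 CPM. Without wounded total replicate 1 the change was -0.99 (adjusted p = 3.59e-06), and the call was lost without any 1 of the other 5 libraries of these groups (0.0634 to 0.151). The call was lost too when scaled by library size alone (adjusted p = 0.0926). Amotl2 was at 5.22, 5.19 and 4.42 CPM in the unwounded total libraries, all above the wounded ones, and did not pass (-0.92, SE 0.33, adjusted p = 0.0728, or 0.0495 with DESeq2). Without wounded total replicate 1 the change of Amotl2 was -0.63 (adjusted p = 0.154). Marveld2 (-0.51, SE 0.24, adjusted p = 0.171), Ocln (-0.46, SE 0.29, 0.337) and Cgn (-0.25, SE 0.15, 0.286) did not pass. For Ocln the groups were apart by little: the lowest unwounded library was at 5.42 CPM and the highest wounded one at 5.40. The keratinocyte markers were higher in the wounded total libraries, as given above, with 6 of 13 called higher, against 8.39% of all genes. Cd68 rose as well (1.13, SE 0.14, adjusted p = 7.85e-05), while the leukocyte markers Ptprc and Cd3e had 7 and 1 counts in all. The part of these in the results was not tested.

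In the cortical fraction fewer genes were called for wounding in the fit of all libraries (337, against 2116 in the total fraction). F11r and Amotl1 were the members called, both higher. These 2 of 9 compare with 1.60% of all genes called higher, 0.884% called lower and 2.48% in either direction. In fits of only the groups compared the order turned. They called 1423 genes and 3 members (2 higher, 1 lower) here, against 1175 genes and 2 members in the total fraction. F11r was at 103, 105 and 121 CPM in the unwounded cortical libraries, below all 3 wounded ones, and rose 1.38-fold (log2 fold change 0.46, SE 0.10, adjusted p = 0.0216). Its call was lost without unwounded cortical replicate 1 or 2 or wounded cortical replicate 2 or 3 (0.0918 to 0.118). Amotl1 rose 1.30-fold (0.38, SE 0.10, adjusted p = 0.0478). That call was lost in 11 of the 12 fits that leave out 1 library (0.0537 to 0.187) and held without wounded total replicate 1 (4.66e-03). It was also lost with RLE factors (0.0635) and library size scaling (0.127), where 1 and 0 members were called.

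The remaining members had the same sign in the cortical fraction as in the total fraction, except Cgn. Cgn was at 29.8, 30.7 and 26.6 CPM in the unwounded cortical libraries, all below the wounded ones (0.33, SE 0.15, adjusted p = 0.263). Tjp1 was lower after wounding with no overlap (-0.46, SE 0.19, adjusted p = 0.212), and without wounded total replicate 1, which is in neither group, it passed (-0.46, 9.09e-03), giving 3 members called. Cldn1 (0.24, SE 0.12, 0.319) and Cldn4 (0.21, SE 0.10, 0.27) were higher without passing. Marveld2 (-0.66, SE 0.24, 0.16), Ocln (-0.57, SE 0.29, 0.328) and Amotl2 (-0.44, SE 0.32, 0.534) were lower without passing. The keratinocyte markers called higher here were 2 of 13, against 1.60% of all genes. The leukocyte list summed to 17.8 to 20.9 CPM in the unwounded and 32.9 to 38.6 CPM in the wounded cortical libraries, and its 1 tested gene, Cd68, was called higher (0.86, SE 0.14, adjusted p = 3.72e-03), while Ptprc and Cd3e had 7 counts and 1 count over all libraries. The part of either marker list in these differences was not tested. In all, 5 members had every wounded library above every unwounded one and 2, Tjp1 and Ocln, had every one below, compared with 15.4% and 11.5% of all genes. For Cldn1 that separation was 69.8 CPM in both the highest unwounded and the lowest wounded library, apart only in further digits.

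**Figure D4:**
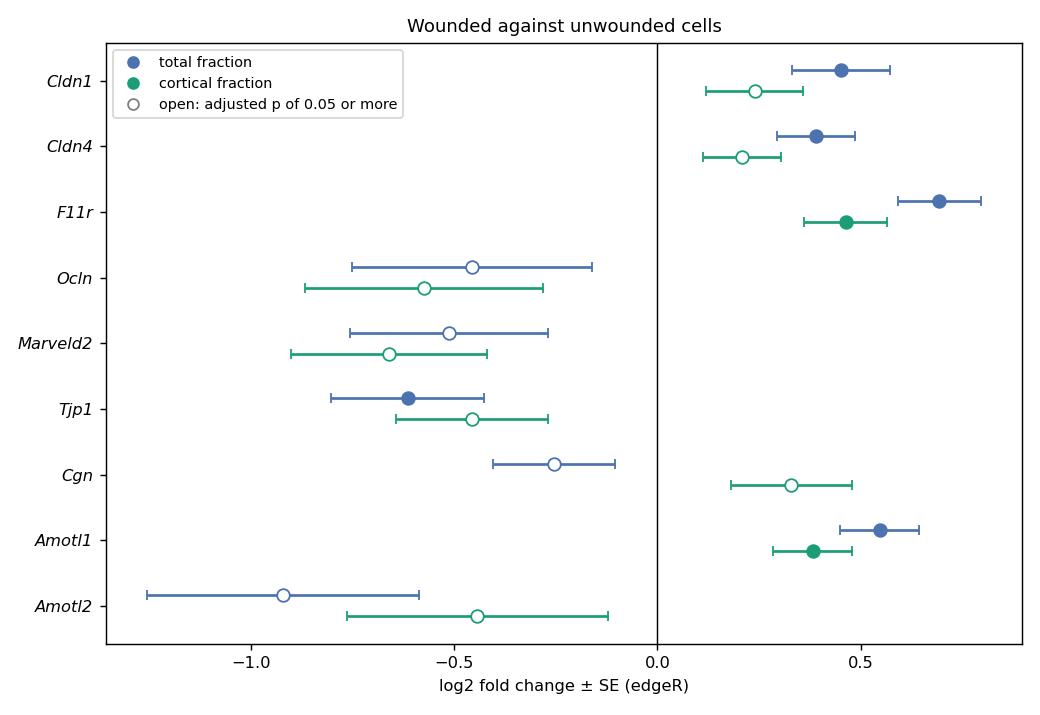
Log2 fold change of wounded against unwounded cells on the horizontal axis for each of the 9 genes, in the total (blue) and cortical (green) fraction, with the standard error from edgeR as bars. Filled points passed an adjusted p of 0.05: F11r and Amotl1 in both fractions, and Cldn1, Cldn4 and Tjp1 in the total fraction. Cgn lies on opposite sides of 0, at -0.25 and 0.33.

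Whether the cortical difference itself changed with wounding was tested as the interaction of fraction and wounding. None of the 9 genes passed with edgeR, compared with 0.125% of all genes, and 1 had an unadjusted p under 0.05, while DESeq2 also called 0 members. That gene was Cgn, whose cortical difference was 0.14 in unwounded and 0.73 in wounded cells (interaction 0.58, SE 0.21, unadjusted p = 0.0135, adjusted p = 0.403). The interaction was 0.48 (SE 0.46) for Amotl2 and 0.16 (SE 0.26) for Tjp1. Without wounded total replicate 1 it was 0.18 (adjusted p = 0.889) for Amotl2 and 0.54 (adjusted p = 0.0769) for Tjp1. For Amotl1 (-0.16, SE 0.14), Cldn4 (-0.18, SE 0.14), Cldn1 (-0.21, SE 0.17) and F11r (-0.23, SE 0.14) the fitted cortical difference was smaller in wounded cells, by less than 2 SE. The calls made in 1 treatment and not in the other are therefore not shown to differ between treatments.

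Across the 12 libraries the 9 genes fell into unlike profiles, which are given here as a description. The libraries share their groups, so these correlations mostly carry the group differences above. Cldn4 and Amotl1 had the most similar log2 CPM (Pearson r = 0.942), followed by Cldn1 and Cldn4 (0.864). The MARVEL pair Ocln and Marveld2 had r = 0.84, and Tjp1 and Ocln 0.817. F11r ran against several of them, with r = -0.629 to Marveld2 and -0.614 to Tjp1. The 2 angiomotins were not alike (r = 0.247). Cldn1, Cldn4, Amotl1, F11r and Cgn had their highest group mean in wounded cells, while Tjp1, Ocln, Marveld2 and Amotl2 had theirs in the unwounded cortical fraction.

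**Figure D5:**
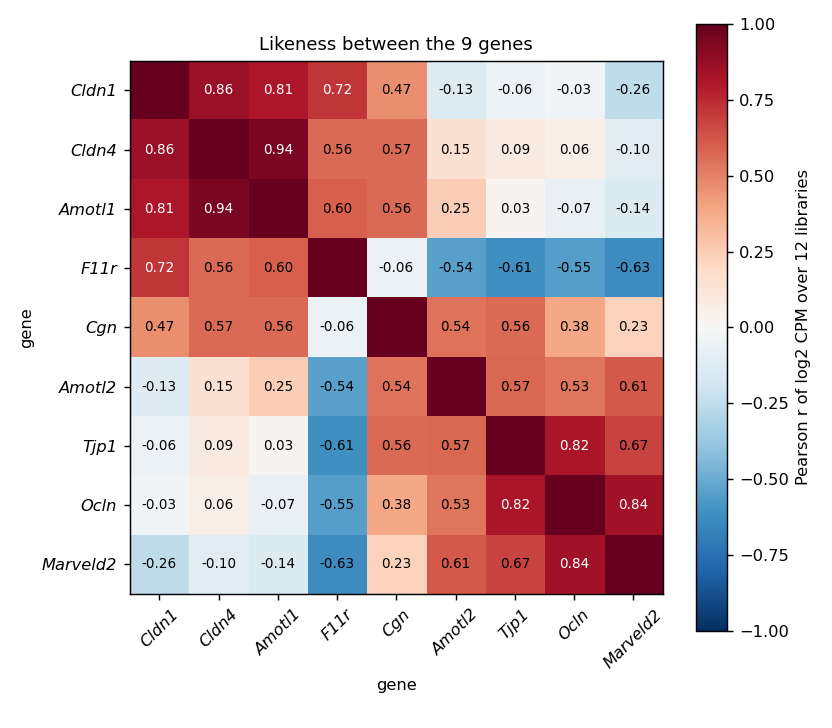
Pearson correlation of log2 CPM over the 12 libraries for each pair of the 9 genes, both axes listing the genes, with red for positive and blue for negative values. Cldn1, Cldn4 and Amotl1 form a block of high values, up to 0.94, and Ocln, Marveld2 and Tjp1 a second. F11r is negative to Tjp1, Ocln, Marveld2 and Amotl2, and weakly so to Cgn (-0.058).

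The genes with the most similar profile to each member were looked for among 8848 other protein-coding genes averaging 100 counts or more, again over 12 libraries and as a description. Cldn4 was followed most closely by Ahnak2 (r = 0.957) and by Jup (0.954), which encodes plakoglobin of the desmosome and adherens junction. Cldn1 was nearest to Srebf2 (0.943), a regulator of sterol synthesis genes, and Mfsd11 (0.941). F11r was nearest to H2-T23 (0.977), a non-classical MHC class I gene, and the interferon-inducible Ifi202b (0.967). Amotl1 was nearest to Arfgef1 (0.983) and Castor2 (0.975), and Amotl2 to Gdpgp1 (0.977) and Xiap (0.963). Tjp1 was nearest to Kif20b (0.98), a mitotic kinesin, and Scd2 (0.972), a fatty acid desaturase. Cgn was nearest to Baz1b (0.915) and Osbp (0.914), Marveld2 to Tubgcp3 (0.916) and Kctd9 (0.895), and Ocln to 6030458C11Rik (0.957) and Wnt3a (0.936).

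The promoters of 3 members are printed. Cldn4 and F11r were called higher after wounding in the total fraction and hold matches to the AP-1 motif. Cldn1 and Amotl1 were called higher there too and hold no such match. Amotl2 holds the single TEAD match among the 9 genes. Whether the motifs have a part in the changes was not tested. AP-1 factors respond to wounding in many epithelia, and TEAD factors are the DNA-binding partners of YAP. Each sequence is the 250 bases before the RefSeq start on GRCm38.p6, 5′ to 3′ on the gene's strand, with motif matches in capitals.
Cldn4, chr5:134946935-134947184, minus strand: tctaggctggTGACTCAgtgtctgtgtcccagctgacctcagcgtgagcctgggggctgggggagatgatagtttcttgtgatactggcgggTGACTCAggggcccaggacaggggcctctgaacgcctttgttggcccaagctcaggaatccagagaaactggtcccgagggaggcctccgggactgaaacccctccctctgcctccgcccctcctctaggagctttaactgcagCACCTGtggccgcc
F11r, chr1:171437311-171437560, plus strand: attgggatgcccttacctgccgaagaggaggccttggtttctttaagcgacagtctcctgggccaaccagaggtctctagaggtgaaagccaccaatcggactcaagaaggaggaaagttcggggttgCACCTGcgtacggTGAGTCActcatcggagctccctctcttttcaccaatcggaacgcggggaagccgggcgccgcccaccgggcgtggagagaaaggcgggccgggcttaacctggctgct
Amotl2, chr9:102717554-102717803, plus strand: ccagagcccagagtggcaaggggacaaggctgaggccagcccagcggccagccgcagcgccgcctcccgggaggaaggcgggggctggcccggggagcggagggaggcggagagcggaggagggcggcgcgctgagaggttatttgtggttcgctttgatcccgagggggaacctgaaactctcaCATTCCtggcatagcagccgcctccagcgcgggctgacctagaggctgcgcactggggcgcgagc
The motifs searched, on both strands, were AP-1 (TGANTCA), TEAD (GGAATG), grainyhead (AACNNGTT) and the E-box bound by Snail (CAGGTG). Cldn4 held AP-1 at -240 to -234 and at -158 to -152 from its start and an E-box at -14 to -9. F11r held AP-1 at -109 to -103 and an E-box at -122 to -117, and Amotl2 held TEAD at -65 to -60. Of 32851 RefSeq promoters, 6.7% held the AP-1 letters, 12.6% TEAD, 3.6% grainyhead and 17.2% the E-box. Cgn held a grainyhead match at -29 to -22, the second listed promoter of Ocln held 2 E-boxes, and no match was found for Tjp1, Cldn1, Marveld2 or Amotl1. For Tjp1, Amotl1 and Amotl2 the RefSeq start lies 156537, 30056 and 1132 bases downstream of the start of the deposited gene model, so those windows are not at the deposited gene start. A match describes letters in the window and says nothing of a factor's binding.

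Among the other tight junction genes, 24 were tested beside the 9. In unwounded cells 3 of the 24 were higher in the cortical fraction and 1 was lower, where 6.62% and 7.59% of all genes were. Among those higher were Mpp5 (PALS1, 0.64, adjusted p = 0.0425) and Patj (0.59, 1.96e-03), and the lower one was Ybx3, the ZO-1-associated nucleic acid binding protein (-0.53, 4.00e-03). Mpp5 was lost without any 1 of 7 libraries (0.0504 to 0.173). In wounded cells 3 were higher and 0 lower, where 7.62% and 8.03% of all genes were. The 3 were Cxadr (0.93, 0.0331), Patj (0.33, 0.0458) and Lin7c (0.32, 0.043). Each of these 3 was lost without at least 5 single libraries (0.0506 to 0.199). With the length trend removed, Mpp5 (0.195), Cxadr (0.0929), Patj in wounded cells (0.864) and Lin7c (0.164) were no longer called. With the 9 genes included, 5 of 33 were higher and 1 lower in the cortical fraction of unwounded cells (median 0.18), and 8 higher and 0 lower in wounded cells (median 0.20).

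After wounding the same 24 genes moved both ways in the total fraction, with 3 higher and 4 lower (8.39% and 7.20% of all genes), and 1 was higher and 0 lower in the cortical fraction (1.60% and 0.884% of all genes). Marveld3, the third MARVEL gene, rose in the total fraction (log2 fold change 0.73, adjusted p = 0.0263, lost without any 1 of 4 libraries, wounded total replicate 1 among them, at 0.0586 to 0.13). Magi1 (0.66, 0.0474, lost in 10 of 12 such fits at 0.0538 to 0.163) rose as well. Cldn12 fell (-0.60, 0.0309, lost without any 1 of 5 libraries at 0.0525 to 0.165). Pard6g (-0.51, 0.0167), Ybx3 (-0.40, 0.0202) and Lin7c (-0.37, 0.0204) fell as well. These 3 were still called without wounded total replicate 1 (1.25e-03, 1.72e-03 and 0.0264), an omission that raised the genes called here from 2116 to 3502. Whether the 3 stayed called without each of the other libraries is not given here. With the 9 genes included, 7 of 33 were higher and 5 lower in the total fraction (median -0.0049), and 3 higher and 0 lower in the cortical fraction (median 0.039). Without wounded total replicate 1 the counts for the 24 in the 4 comparisons were 3 higher and 2 lower, 5 and 2, 2 and 5, and 3 and 1. None of the 33 passed the interaction test with edgeR or DESeq2, and 3 had an unadjusted p under 0.05. Without wounded total replicate 1 the interaction called 2 of the 24, Ybx3 (0.48, adjusted p = 0.0482) and Pard6g (0.67, 0.0445). That fit called 413 of all genes for the interaction, against 17 with all libraries.

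Of the Hippo pathway genes, 25 were tested, none of them among the 9. In the cortical fraction 2 were higher in unwounded cells and 0 lower, beside 6.62% and 7.59% of all genes. The 2 were Fat1, a giant protocadherin upstream of the pathway (0.87, adjusted p = 0.0137) and the kinase Taok1 (0.45, 0.0451). In wounded cells 4 were higher and 0 lower, beside 7.62% and 8.03%, and these were Fat1 (0.93, 0.0108), the scaffold Frmd6 (0.72, 0.0103), Taok1 (0.69, 4.44e-03) and the kinase Lats1 (0.60, 0.011). In the total fraction 3 were lower after wounding (7.20% of all genes), Frmd6 (-0.81, 4.53e-03) and the LATS co-activators Mob1b (-0.61, 0.0298) and Mob1a (-0.59, 5.90e-03), and 1 was higher (8.39%), the transcription factor Tead4 (0.37, 0.0405). In the cortical fraction 0 were called for wounding, beside 1.60% of all genes called higher and 0.884% called lower. Their medians in these 4 comparisons were 0.20, 0.12, -0.26 and -0.11, against 0.0023, 0.042, -0.026 and 0.015 for all genes. Without wounded total replicate 1 the Hippo genes called higher and lower became 4 and 0, 6 and 0, 2 and 6, and 1 and 2. Leaving out single libraries ended the calls of Fat1 (0.0511 to 0.0609 unwounded, 0.0599 wounded), Taok1 unwounded (0.064 to 0.168), Lats1 (0.0559 to 0.0603), Mob1b (0.0505 to 0.114) and Tead4 (0.0569 to 0.167), and of Frmd6 in the cortical comparison (0.0605). With the length trend removed, Fat1 in unwounded cells (0.0544), Taok1 (0.593 unwounded, 0.168 wounded) and Lats1 (0.065) were no longer called.

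Of the YAP target genes 8 were tested, 1 of which is Amotl2. Among all genes 6.62% were called higher in the cortical fraction of unwounded cells and 7.62% in that of wounded cells. After wounding 8.39% were called higher in the total and 1.60% in the cortical fraction. The shares called lower in these 4 comparisons were 7.59%, 8.03%, 7.20% and 0.884%. Arhgef17, a guanine nucleotide exchange factor, was higher in the cortical fraction of unwounded (0.80, SE 0.12, adjusted p = 6.36e-04) and wounded cells (0.62, SE 0.12, 3.40e-03, or 0.0558 with the length trend removed). Amotl2 was the other one higher in wounded cells. After wounding Ctgf, a secreted matricellular protein, was the 1 target called in the total fraction, from 5.74 ± 1.09 to 12.2 ± 1.71 CPM (1.08, SE 0.24, adjusted p = 5.90e-03), and 0 were called in the cortical fraction. The medians of the 8 were 0.55, 0.41, 0.041 and 0.011, against 0.0023, 0.042, -0.026 and 0.015 for all genes. For the 7 targets other than Amotl2, the counts higher and lower were 1 and 0, 1 and 0, 1 and 0, and 0 and 0 in the 4 comparisons, and without wounded total replicate 1 they were 2 and 1, 1 and 0, 1 and 0, and 1 and 0. The 3 calls gained were Lats2 (1.17, adjusted p = 0.0408) and Axl (-0.29, 0.0118) in the cortical fraction of unwounded cells, and Ctgf after wounding in the cortical fraction (0.90, 0.0149). The interaction called 0 of these 8 and 0 of the Hippo genes with edgeR or DESeq2, with 0 and 2 at an unadjusted p under 0.05.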

How the data were processed

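The authors deposited raw counts per gene and FPKM values (fragments per unit of gene length and sequencing depth), beside a gene length in bases, 1 column per library, per the file headers. Per the labels' protocols, poly-T beads selected the messenger RNA and libraries were non-directional. CASAVA, HISAT2 and build mm10 are in the submitters' processing notes; versions, counting tool and annotation were not given in the sources used here. Of 54532 gene identifiers, 54409 were in GENCODE M21, 98.3% at the same coordinates. Genes annotated as overlapping the 9 had at most 3 counts in a library. The number of per-sample columns not used was 0.

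Counts were filtered with filterByExpr, scaled with TMM factors (0.831 to 1.10) and fitted with edgeR 4.0.16 in R 4.3.3, with a mean per group over all 12 libraries. The 5 contrasts were tested two-sided with the quasi-likelihood F test and Benjamini-Hochberg adjustment over 13571 genes. The SE given beside a log2 fold change is its standard error, and 2 was the prior count in log2 CPM. Group lists were tight junction, Hippo and YAP target genes and markers of 5 cell types. Beside the 9 genes, up to 4 called genes of each list with the largest change were named per comparison; Pard6g, Ybx3 and Lin7c in the wounding comparison were named after their values were seen, and 1 called gene of the tight junction list is not reported here. The 9 genes and the lists were chosen with earlier results of these data known. The main fit did not pair libraries by replicate number, and a fit with a replicate block is among the alternatives. Libraries with 1 number in 2 groups deviated from the means of their groups with correlations of -0.0476 to 0.137 across 11615 genes. With so few libraries a group, this cannot show whether the total and cortical libraries of 1 number came from 1 sample.

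Alternatives were RLE and library size scaling, DESeq2 1.42.0, limma 3.58.1 on log2(FPKM + 1 or 0.1), other filters (none, or a mean of 50 counts), the replicate block, a loess gene length trend (span 0.5) removed, only the groups compared, and leaving out each library. On simulated data for the unwounded cortical comparison, edgeR found 72% of 200 altered genes among 12955 tested, and 7.10% of what it called was false. Figures used matplotlib 3.10.9.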

Additional observations from a re-analysis of the deposited data

How the results depend on the processing

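Of the called differences of the 9 genes, 5 kept their direction and call under all 23 alternatives: Amotl1 and Cldn4 (unwounded cortical), Cgn (wounded cortical), and F11r and Amotl1 (wounding, total). Each other call was lost in at least 1 alternative.

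Fitting only the groups compared called 3014 genes and 4 of the 9 in the unwounded cortical comparison (1928 and 2 otherwise). In the wounded one it called 970 and 2 (2124 and 5). For wounding it called 1175 and 2 in the total fraction (2116 and 5) and 1423 and 3 in the cortical fraction (337 and 2). With the gene length trend removed the wounded cortical comparison called 1259 genes and 2 members, and 1173 and 2 with the replicate block as well, while RLE scaling called 3 members. Library size scaling called 3 members for wounding in the total fraction. For wounding in the cortical fraction it called 199 genes and 0 members, DESeq2 called 736 genes, and no filter 559 and 1 member, while RLE scaling, the replicate block, the length trend, both together and limma with either pseudocount each called 1 member. The interaction called 17 genes, and 11 with library size scaling, 72 with DESeq2, 138 with no filter, 10 with the replicate block and 10 with limma at either pseudocount. The block ended the calls of Cldn4 (wounded cortical, adjusted p = 0.0542) and Amotl1 (wounding, cortical, 0.0569) and no other of the 9.

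Leaving out 1 library gave 949 to 3151 genes and 2 to 4 members (unwounded cortical), 1084 to 3475 and 2 to 5 (wounded cortical), 1128 to 3502 and 2 to 5 (wounding, total), 108 to 1276 and 0 to 3 (wounding, cortical), and 4 to 413 and 0 to 0 (interaction). The highest gene counts were without wounded total replicate 1. Signs turned for F11r in the wounded cortical comparison with library size scaling (0.10). When 1 library was left out, Marveld2 there ran from -0.062 (without wounded cortical replicate 3) to 0.47. Interactions ran from -0.39 to 0.035 for Ocln (positive without wounded total replicate 1 or wounded cortical replicate 1), from -0.041 to 0.54 for Tjp1 (negative without wounded total replicate 2 or 3) and from -0.49 to 0.046 for Marveld2 (positive without wounded cortical replicate 1). The causes were not tested.

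Library size scaling moved the median of all genes by 0.19, 0.21, -0.079 and -0.054, to 0.19, 0.25, -0.105 and -0.038, and the genes called higher and lower became 1582 and 469 (898 and 1030 with TMM), 2203 and 520 (1034 and 1090), 708 and 1104 (1139 and 977), and 108 and 91 (217 and 120). Removing the length trend in wounded cells gave 473 and 786. Depth limits Amotl2 and Ocln most, at 24 to 218 counts per library.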

Other observations

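Of 20 claudin genes listed in the count table, 4 had enough counts to be tested. Over the 12 libraries Cldn4 had a mean of 53.2 FPKM, Cldn1 13.8, Cldn12 3.22 and Cldn23 0.383. Claudin-7, whose gene Cldn7 is active in many simple epithelia, had 12 counts in all, 11 of them in 1 library. Cldn3 and Cldn6 had 29 and 24 counts over all libraries. Cldn2, Cldn5, Cldn8, Cldn11, Cldn19, Cldn20 and Cldn22 had 0 counts in all of them. Amot, the founding member of the angiomotin family, had 16 counts, all in 1 library, so Amotl1 and Amotl2 carried the angiomotin signal described above. These genes were taken by family, from a list written with earlier results of these data known.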
